A study of Rattus norvegicus with 3 samples.

Results

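The uninjured common carotid artery of the male Wistar rat was described here from 1 one-colour Agilent array, the only array of that group analysed, out of 3 arrays in the series. The wall was flushed with cold phosphate-buffered saline after harvest and frozen, and total RNA of the whole artery was labelled with Cy3, per the labels. The study set uninjured arteries against arteries 7 and 21 days after balloon injury, and the injured arrays were not used here. The labels used here name no transgene, drug or age. Members were the genes whose brightest probe read well above background on this array: of 13836 genes that could be named from their probes' accessions, 9764 (70.6%) passed and 4072 did not. Genes were ranked by the scanner's processed signal, a background-subtracted brightness in array units, and the 976 brightest genes (10% of those that passed) are called the brightest decile.

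The carotid is an elastic artery. Its media is built of smooth muscle cells between elastic lamellae, its intima is a single layer of endothelial cells, and its adventitia holds fibroblasts, resident macrophages, nerve endings and small vessels. Contractile smooth muscle cells carry actin, myosin and tropomyosin filaments anchored at dense bodies, and the same cells secrete much of the collagen, elastin and proteoglycan that bears the load of the pulse. In RNA from whole tissue, fewer cells of a type and less RNA per cell cannot be told apart.

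With 1 array there was no measure of the spread between animals, so no difference was tested and every value below is a description of this array. The technical error came from 263 probes printed as 10 spots each. The median SD over such spots was 0.0767 on the log2 scale for signals above 1024 and widened to 0.417 for signals under 16. No spot was saturated, and none of 153 negative-control spots was well above background. Their highest signal was 8.55, and the highest signal of a gene that did not pass was 14.0. Of 320 spike-in spots, 111 were well above background, and the median over all 320 was 6.60. The array carries no calibration from brightness to RNA amount: the spike-in probes read at most 33.9, and probes of the same gene differed by a median of 4.90-fold. Ranks therefore order probes by brightness, and a gap between neighbours in the order is not a measured difference in transcript number.

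Signal of the named genes was concentrated in few of them. The median gene that passed read 55.2, with a lower quartile of 20.2 and an upper quartile of 242, and the range ran from 8.41 to 118184. Of the signal summed over named genes that passed, the 10 brightest held 12.2%, the 100 brightest 44.96% and the brightest decile 83.1%. Probes without a gene name, among them all 10 of the brightest probes on the array, are left out of that sum. The last gene inside the brightest decile read 1000.65 and the first outside it 999.62, so that boundary separates genes no further apart than replicate spots.

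The wall's smooth muscle identity was checked first. Myh11, the smooth muscle myosin heavy chain, read 4751 and ranked 238th. Des, the muscle intermediate filament desmin, read 1443, and Cnn1, an actin-binding calponin of contractile cells, read 1174. All 3 lay in the brightest decile. No probe could be matched to Acta2, smooth muscle alpha-actin, so the usual leading marker has no value here; a probe for it may be among those without a gene name. Of the fixed markers of endothelium, macrophages and fibroblasts, only Dcn lay in the brightest decile. Of the endothelial markers, the receptor Kdr read 87.4, the junction protein Cdh5 24.7 and the receptor Tie1 9.31, while Pecam1 was not well above background. Of the macrophage markers, Cd68 read 723 and Tyrobp 458, Csf1r 57.0 and Mrc1 45.2, and Cd163 was not well above background. The fibroblast markers spanned a wide range, from the proteoglycans Dcn at 3673 and Lum at 876 through Pdgfra at 260.2 to Cd34 at 16.7 and Pi16 at 11.5.

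**Figure D1:**
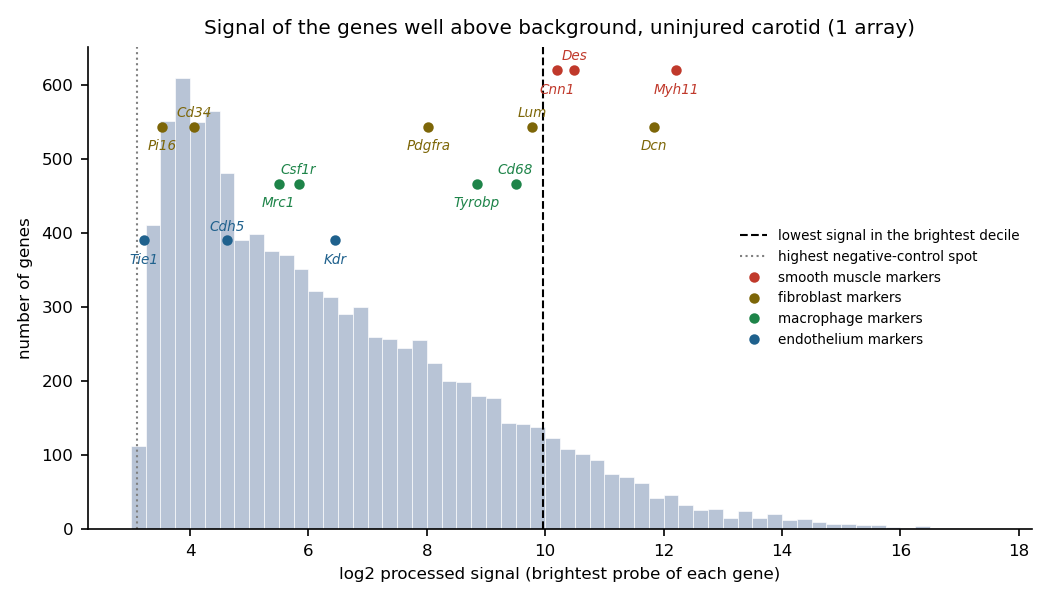
Histogram of log2 processed signal for the 9764 genes well above background on the uninjured array (y axis: number of genes), with cell type markers as coloured points placed at their signal; their height on the plot has no meaning. The 3 measured smooth muscle markers lie to the right of the dashed line that bounds the brightest decile, Dcn is the only other plotted marker there, and the endothelial markers span signals from 9.31 to 87.4, on either side of the median of 55.2.

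The leading genes belonged to a few families. Of the 50 brightest genes, 24 encoded cytosolic ribosomal proteins, 7 extracellular matrix proteins, 5 translation factors or ubiquitin genes, 3 smooth muscle or cytoskeletal proteins and 3 proteases or their inhibitors. Among all 9764 genes, 73 were ribosomal proteins and 85 matrix genes on the lists used. Col3a1, the type III collagen chain of distensible tissues, was the brightest named gene at 118184. Tpm2, the beta-tropomyosin that lies along smooth muscle actin filaments, was next at 106521. Bgn, the small proteoglycan biglycan, read 72248, and Mgp, the vitamin K-dependent inhibitor of arterial calcification, read 64331. Cst3, the secreted cysteine protease inhibitor cystatin C, read 46897.5, and Tmsb4x, which binds free actin monomers, read 38229. The order among them was fine-grained: only 5 of 50 steps between neighbours at the top exceeded 0.109 on the log2 scale, the SD expected of a difference between 2 single spots at that brightness.

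**Figure D2:**
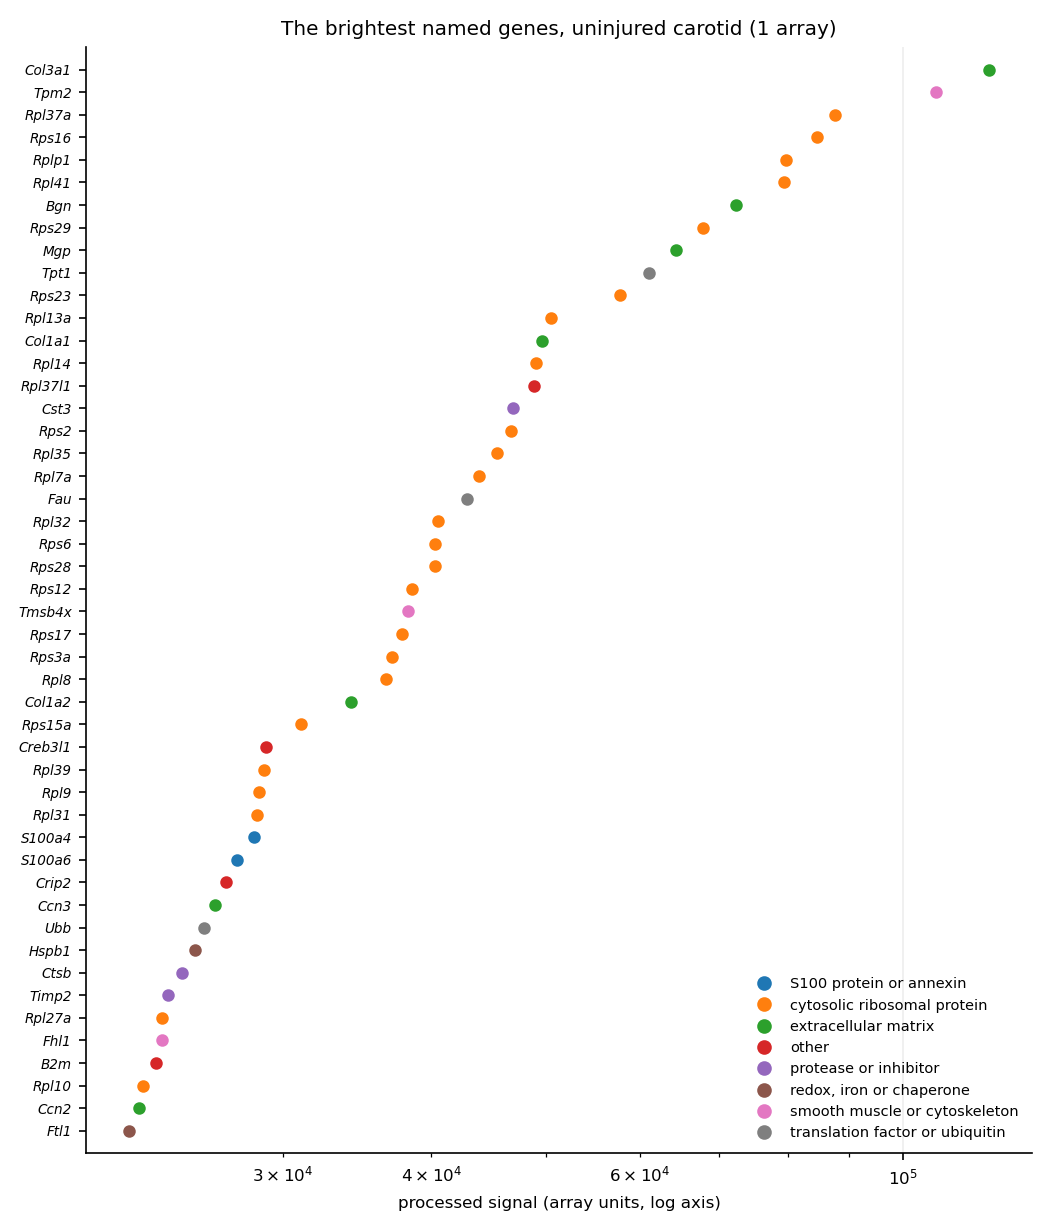
Processed signal (array units, log axis) of 48 of the 50 brightest named genes on the uninjured array, 1 point per gene, coloured by class. Ribosomal protein genes make up 24 of the points, while the 2 brightest are Col3a1 (matrix) and Tpm2 (smooth muscle).

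The contractile genes were bright as a group. Of 25 genes on the list, 22 had a matched probe (Acta2, Myl6 and Cnn2 did not), all 22 were well above background, and 14 (63.6%) lay in the brightest decile, against 10% of all genes. Their median signal was 1685. The brightest was Tpm2 at 106521. Other thin-filament genes were Tagln, the actin cross-linker SM22-alpha, at 19225, Tpm1 at 13767 and the enteric-type smooth muscle actin Actg2 at 10943. Of the myosin genes, the regulatory light chains Myl12a and Myl9 read 19662 and 7965, and Myl12b read 877. Tpm4 at 1250.24 was inside the brightest decile, while Tpm3 at 914 was outside it. Smtn, the contractile-cell protein smoothelin, read 3341.

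The enzymes that set the phosphorylation of myosin differed widely in brightness. Of the phosphatase genes, 3 were in the brightest decile: Ppp1r14a, the inhibitor CPI-17, read 4469, the targeting subunit Ppp1r12a 2117 and the catalytic subunit Ppp1cb 1585. Ppp1r12a read 104 on its other probe. Ppp1r14b, a relative of CPI-17, read 789. Mylk, the myosin light chain kinase, was among the dimmest of the group, with 68.2 and 33.6 on its 2 probes. Ppp1r12b, another phosphatase targeting subunit, read 13.2 and Lmod1, an actin filament nucleator of smooth muscle, 30.1. The actin-binding caldesmon gene Cald1 read 421. Casq2 and Pln, which store calcium in the sarcoplasmic reticulum and restrain its pump, read 1792 and 917.

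The dense-body and cytoskeletal list had 36 of 43 genes matched, all well above background, with 19 (52.8%) in the brightest decile and a median signal of 1377. After Tmsb4x the brightest was Fhl1, a LIM-domain protein of muscle, at 23694. Actb, cytoplasmic beta-actin, read 18005 on one probe and 13029 on another printed as 10 spots with an SD of 0.109 on the log2 scale. The Z-line and dense-body LIM proteins Pdlim3 and Csrp2 read 15959.7 and 15291, and the actin cross-linker Flna read 11646. Vim, the intermediate filament of mesenchymal cells, read 2985, beside 1443 for Des. Fhl2, a close relative of Fhl1, read 34.1.

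Serum response factor, which drives many smooth muscle genes, binds a motif known as the CArG box. An exact CArG box (both strands) was searched in the 250 bases before each start in the RefSeq promoter table of assembly GRCr8, and was found in 501 of 33469 windows (1.497%). None of 20 windows of 17 contractile genes held one. Of 33 windows of 28 dense-body and cytoskeletal genes, 4 (12.12%) did, in Actg1, Fhl1 and, at 2 alternative starts, Fhl2. Their sequences show the motif, in capitals, with 10 bases on either side in lower case:
Actg1: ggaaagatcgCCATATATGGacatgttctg
Fhl1: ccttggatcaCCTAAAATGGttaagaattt
Fhl2: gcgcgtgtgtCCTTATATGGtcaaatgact
Fhl2 (other start): catttagagaCCAAAAATGGcttgcaggag
They lie at chr10:106121022-106121051 (minus strand), chrX:139638384-139638413 (plus), chr9:52923365-52923394 (minus) and chr9:52954616-52954645 (minus), and the motif begins 90, 102, 58 and 95 bases before the start. Of the genes with the motif, Actg1 read 9813 and Fhl1 23694, while Fhl2 read 34.1. A missing match says only that these letters are not in the window searched. The factor's own gene Srf read 3588 on its brightest probe, 63.9 on the next and was not well above background on the third. Its co-activator gene Myocd read 73.3.

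A few fibrillar collagens were among the brightest genes, while the collagen list as a whole was not: its median signal was 142. All 12 measured genes of that list were well above background, and 5 were in the brightest decile: Col3a1, Col1a1 at 49648.5, Col1a2 at 34265, Col18a1 at 4145 and Col5a1 at 2379. In the wider family of collagen chains by symbol, all 17 measured genes passed and 6 were in the brightest decile. On their other probes Col1a1 read 16021 and Col1a2 5874, both still above the bound of the brightest decile, while Col5a1 read 205, below it. The cartilage collagen Col2a1 read 21.9 and the skin anchoring-fibril collagen Col7a1 10.01. Creb3l1, a transcription factor of collagen-secreting cells that is released from the endoplasmic reticulum, was among the 50 brightest genes at 29001. Of 20 genes for collagen processing, 6 were in the brightest decile, led by the cross-linking enzyme Loxl1 at 8179, the procollagen protease Bmp1 at 7398 and the collagen chaperone Serpinh1 at 4136. Loxl1 read 638 on its other probe and Bmp1 19.3 on the dimmest of its 3.

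Elastic-fibre genes were spread over a wide range. All 15 were well above background and 5 were in the brightest decile, with a median signal of 503. The TGF-beta-binding protein Ltbp1 read 7703 and the microfibril protein Mfap5 4516. The scaffold gene Fbn1, fibrillin-1, read 1564. Eln itself, the elastin gene, read 124 on its only probe.

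Proteoglycans and matricellular proteins also held several of the leading genes. Of 17 proteoglycan-related genes, 14 passed and 5 were in the brightest decile; after Bgn came Fmod at 6813, Ogn at 6248, Dcn at 3673 and Omd at 2163, all small leucine-rich proteoglycans that bind collagen fibrils. Acan, the large cartilage proteoglycan, was not well above background. Of 20 matricellular and related glycoprotein genes, 17 passed, 10 (58.8%) were in the brightest decile and the median was 2090.0. Ccn3 read 26300.4 and Ccn2 22674 (10 spots, SD 0.064 on the log2 scale), both secreted CCN-family regulators of matrix and growth signalling. Sparc, Sparcl1 and Clu read 12211, 11499.9 and 10916. Tnc and Vtn were not well above background, and Thbs1 read 8.97.

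Basement membrane and adhesion genes followed. Col4a1 read 4355, Lama5 1795 and Lamb2 1276, 3 of 7 basement membrane genes in the brightest decile. That count was 2 with the mean over probes or the dimmest probe, and 4 with no filter on dim genes. Col4a1 read 360 on its other probe and Lama5 11.4 on the dimmest of 3. The laminin-binding integrin pair of muscle, Itga7 and Itgb1, read 9403 and 7669. Itga7 read 160 on its second probe, and Itgb1 read 96.5 on its second probe (10 spots, SD 0.132 on the log2 scale). Of the dystrophin-associated sarcoglycans, Sgca read 1851 and Sgce 1453. The caveolar genes Cavin3 and Cav1 read 7068 and 551.

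Genes that degrade matrix and genes that restrain degradation were both bright. Of 27 measured protease and inhibitor genes, 20 passed and 12 (60.0%) were in the brightest decile. The inhibitors Cst3 and Timp2 read 46897.5 and 24014, and the proteases Ctsb, Mmp2 and Mmp14 read 24662, 10510.1 and 5268. Mmp3, Mmp9, Mmp12 and Mmp13, proteases known from inflamed tissue, were not well above background.

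Cytosolic ribosomal proteins gave more genes to the brightest decile than any other list or family counted. All 44 measured genes of the large subunit and all 29 of the small subunit were well above background, and 43 and 27 of them were in the brightest decile. Their median signals were 13644 and 14764.5. Rpl37a read 87673, Rps16 84613, Rplp1 79603 (10 spots, SD 0.049 on the log2 scale), Rpl41 79298, Rps29 67772 and Rps23 57749.6. The 3 members outside the brightest decile were Rps15 at 745, Rpl34 at 235 and Rps26 at 50.5. Rpl37l1, which the family count leaves out because of its symbol, read 48847. Ribosomal protein genes have many near-identical copies in the genome, and what each copy adds to a probe's signal cannot be told apart here. Mitochondrial ribosomal proteins, from another gene family, had 62 of 63 genes above background, 12 in the brightest decile and a median signal of 249.8.

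Messenger RNAs of ribosomal proteins are known to begin with a run of pyrimidines that ties their translation to growth signals. The RefSeq promoter table of assembly GRCr8 was searched for a run of at least 7 C or T on the gene's strand, within 5 bases before to 12 bases after the annotated start, in genes with a single annotated start. Such a run was present in 35 of 58 ribosomal protein genes (60.3%), in 5 of 17 translation factor genes (29.4%), in 2 of 48 mitochondrial ribosomal protein genes (4.17%) and in 2055 of all 24206 promoters (8.49%). The 8 brightest ribosomal protein genes with an entry are shown from 15 bases before the start to 15 bases from it onward, with a run in capitals where the search found one, and Tpm2 below them for comparison:
Rpl37a: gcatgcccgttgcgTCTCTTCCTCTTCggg
Rps16: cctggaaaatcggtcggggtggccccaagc
Rplp1: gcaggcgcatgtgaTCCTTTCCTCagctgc
Rpl41: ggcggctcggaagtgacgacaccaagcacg
Rps23: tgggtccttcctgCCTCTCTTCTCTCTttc
Rpl13a: cctcttcctttcctaggcggctgccgaaga
Rpl14: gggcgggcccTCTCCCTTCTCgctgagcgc
Rps2: cctcttctttttcttcgggaaaacacgtga
Tpm2: ttggtgggggagggtcctggtcccccggct
In that order the windows are chr9:81748076-81748105 (plus strand), chr1:92770643-92770672 (plus), chr8:71290858-71290887 (minus), chr7:1563483-1563512 (minus), chr2:23814502-23814531 (plus), chr1:104748899-104748928 (minus), chr8:129163605-129163634 (plus), chr10:14251833-14251862 (plus) and chr5:62575712-62575741 (minus). In Rpl13a and Rps2 a long pyrimidine run lies before the annotated start and reaches too little into the window to count. Ribosomal protein genes with and without the run overlapped in brightness. The 35 with it ranged from 50.5 (Rps26) to 87673 with a median of 14045, and the 23 without it from 1856 to 84613 with a median of 14764.5.

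Other genes of protein synthesis were bright as well. All 25 measured translation factor and ubiquitin genes were well above background, and 18 (72.0%) were in the brightest decile. Tpt1, the translationally controlled tumour protein, read 61041, and Fau, which encodes a ribosomal protein fused to a ubiquitin-like protein, read 42912. The polyubiquitin gene Ubb read 25729.9, and the start-codon factor Eif1 read 20359.

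Genes of oxidative phosphorylation were well represented among the bright genes. All 15 ATP synthase genes passed, 12 of them in the brightest decile, with Atp5f1e at 16410.0 and Atp5me at 14357.5. Of 30 complex I genes, 19 (63.3%) were in the brightest decile, with Ndufb8 at 11531 and Ndufs7 at 10657. Cox6a1 and Cox8a of cytochrome c oxidase read 15477 and 13960.0, and Uqcr10 of complex III read 14818. Within ATP synthase the catalytic head subunits Atp5f1a and Atp5f1b were the dimmest, at 239 and 263. Of 20 glycolysis genes, 19 passed and 7 were in the brightest decile, led by Pgam1 at 4574 and Gapdh at 3459 (10 spots, SD 0.060 on the log2 scale). Pgam1 read 335 on its other probe, below the bound of the brightest decile. Slc2a4, the insulin-responsive glucose transporter, read 1262 on one probe and 44.2 on the other. The widely expressed transporter Slc2a1 read 671.

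Stress-protective genes included several of the leading genes. Hspb1 and Cryab, small heat shock proteins of muscle, read 25262 (10 spots, SD 0.077) and 10462. The ferritin light chain Ftl1 read 22260.0, Sod3, the extracellular superoxide dismutase of the arterial wall, 19226, and Gpx1, a glutathione peroxidase, 17909. Of 34 iron, redox and detoxification genes that passed, 12 (35.3%) were in the brightest decile. S100a4 and S100a6, calcium-binding proteins of motile and mesenchymal cells, read 28350.1 and 27416, and Anxa1, an anti-inflammatory annexin, read 20034. Crip2, a LIM-domain protein, read 26868 on one probe and 720 on the other.

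Calcium-handling and ion channel genes lay mostly above the median gene, and the receptor list lay around it. Of 33 calcium and ion channel genes measured, 30 passed, 23 of them above the median gene, and 8 (26.7%) were in the brightest decile, with a median of 224. The calcium channel subunit Cacna2d1 read 5560.2, the sarcoplasmic reticulum pump Atp2a2 3986 and the pore of the vascular ATP-sensitive potassium channel Kcnj8 1592. Atp2a2 read 369 on the dimmest of its 3 probes, below the bound of the brightest decile. The pore of the L-type channel, Cacna1c, read 205 and the large-conductance potassium channel pore Kcnma1 87.1. On their other probes Cacna1c read 2.11 and Kcnma1 3.29, neither well above background. Of 41 receptor and second-messenger genes measured, 33 passed and 6 were in the brightest decile, with a median of 55.2. Ramp1, a subunit of the receptor for calcitonin gene-related peptide, read 8092, and Npr1, the receptor for atrial natriuretic peptide, 7378 (10 spots, SD 0.107). Ptgis, prostacyclin synthase, read 1898. The receptors for angiotensin and endothelin on smooth muscle, Agtr1a and Ednra, read 158 and 128, and Ednrb was not well above background. Of the connexins, Gja1 read 2487 and Gja4 262.

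Among growth factors and their receptors, 32 of 38 measured genes passed and 5 (15.6%) were in the brightest decile, against 10% of all genes. These were Igfbp4 at 6223, Gas6 at 4657, the platelet-derived growth factor receptor Pdgfrb at 4418, Igf1 at 3018 and Tgfb3 at 1503. On their other probes Igfbp4 read 22.5, Gas6 436 and Igf1 164, all below the bound of the brightest decile. Pdgfb, a ligand of Pdgfrb, was not well above background. The transcription factor Klf4 read 2016 in this uninjured artery.

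Immediate-early genes, which are switched on within minutes of stress or handling, spanned the whole range. Of 23 measured, 22 passed and 8 (36.4%) were in the brightest decile. Jund read 20752 on one probe and 25.6 on the other, Nr4a1 10948, Atf3 8647, Btg2 8128 and Jun 6518. Fos read 388, Junb 133 and Egr2 59.0, and Zfp36 was not well above background. Of 14 circadian clock genes, 12 were well above background and none was in the brightest decile (1 with the dimmest probe or with no filter on dim genes): Nfil3 read 605, Dbp 495, Per2 351 and Bmal1 201, and Clock and Nr1d2 did not pass.

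Genes of mitosis passed about as often as genes in general, and those that passed were dim. Of 16 mitosis genes, 11 (68.8%) passed, against 70.6% of all genes, none was in the brightest decile, and the median of those that passed was 16.9. Cdc20 read 198, Cdk1 19.4 and Plk1 16.9, and Ccnb2, Ccna2, Aurka, Kif11 and Birc5 were not well above background. Of 19 DNA replication genes, 14 (73.7%) passed, none was in the brightest decile, and the median was 31.8. The replication clamp gene Pcna read 294, while Mcm2 and Mcm6 did not pass.

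Cells other than smooth muscle were represented by lists that differed in brightness. Of all genes, 70.6% passed. The shares here were 85.7% (fibroblast), 90.0% (endothelial), 80.8% (macrophage), 52.4% (T and NK), 40.0% (neutrophil) and 69.6% (Schwann cell). Of 21 adventitial fibroblast genes, 18 passed and 5 (27.8%) were in the brightest decile, with a median of 281; Gsn, the actin-severing gelsolin that other cells also make, led at 22249.8. Of 20 endothelial genes measured, 18 passed, none was in the brightest decile and the median was 33.4; Gja4 at 262 and Esam at 121 led, and Nos3, endothelial nitric oxide synthase, read 41.6. Of 26 macrophage and monocyte genes, 21 passed and 1, Lgals3 at 5976, was in the brightest decile (3 with the mean over probes, with the dimmest probe or with no filter on dim genes); the complement gene C1qb read 973. Of 21 T and NK cell genes, 11 passed with a median of 18.8, led by Cd3d at 105, and Cd4 and Cd8a did not pass. Of 10 neutrophil genes 4 passed, the brightest being S100a9 at 29.5. Of 23 Schwann cell genes 16 passed, with a median of 22.3; Pmp22, which other cells also make, read 1673, while the myelin gene Mbp read 28.6.

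Single genes of neighbouring tissues stood above the rest of their lists. Npy, the neuropeptide of sympathetic nerves, read 4293 on 10 spots with an SD of 0.106 on the log2 scale. The enzymes of noradrenaline synthesis in those nerves, Th and Dbh, read 13.0 and 10.72, and Stmn2 and Snap25 were not well above background. Of 27 adipocyte genes measured 19 (70.4%) passed, near the 70.6% of all genes. The lipid synthesis genes Acaca and Acly read 1990.0 and 1004, Fabp4 read 122 and Adipoq 19.6, and Lep did not pass. Of 37 striated muscle genes 30 (81.1%) passed, with a median of 33.2, led by Eno3 at 893 and Ckm at 473. Acta1 read 141 and Myh4 13.0. Of the blood cell genes, the platelet chemokine Pf4 read 2261 and the beta-globin gene Hbb-b1 1274, while Hbb was not well above background and Alas2 read 14.7. Of 12 thyroid, parathyroid and salivary gland genes measured, 6 passed with a median of 18.8, and the brightest, Calca, read 468. Calca read 9.58 on its other probe. The thyroid gene Tg read 16.5, and the parathyroid gene Pth was not well above background. Which cells the Npy and Pf4 transcripts came from was not tested.

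Families of receptors for smell and taste marked the low end of the array. Of 1087 olfactory receptor genes, 347 (31.9%) were well above background, against 70.6% of all genes, and 2 of the 347 (0.576%) were in the brightest decile. The median of those that passed was 20.7. Or4f14d read 5441 and Or13c7e 1076, each on a single probe. Of 57 vomeronasal and taste receptor genes 14 passed, the brightest at 50.1 (Vom2r36). Potassium channel genes passed in 45 of 83 cases (54.2%) and homeobox Hox genes in 9 of 19 (47.4%), led by Hoxa2 at 249.5.

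**Figure D3:**
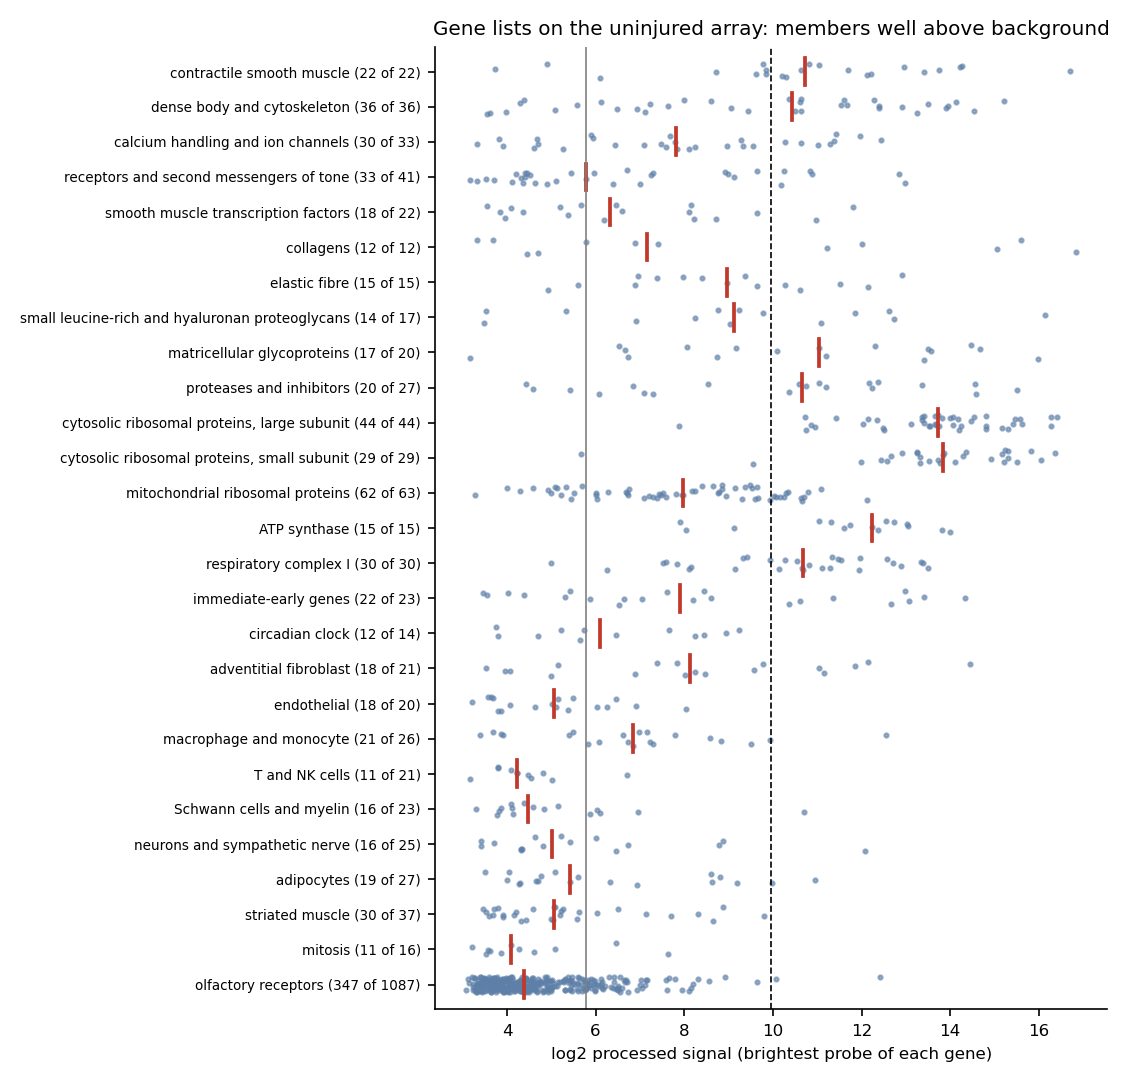
Log2 processed signal of the list members well above background on the uninjured array, 1 point per gene, with the list median in red; the numbers give members well above background of members measured. The grey line is the median of all genes that passed (55.2) and the dashed line the lower bound of the brightest decile. The medians of the cytosolic ribosomal, ATP synthase, contractile, dense-body, matricellular, protease and complex I lists lie right of the dashed line.

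Where a gene had several probes, they often disagreed. Of 2987 such genes, 695 (23.3%) had probes 16-fold or more apart. The widest gap was in Csrnp2, with 15382, 104 and 2.52 on its 3 probes, followed by Rpl28 with 8878 and 1.88, Eif1 with 20359 and 13.1, Cttn with 3957 and 3.54, and Tpt1 with 61041, 34251 and 61.7. Contractile genes showed the same: Tpm2 read 106521, 24809.8 and 8319, Tpm1 from 13767 down to 802, Myh11 4751 and 111, and Smtn 3341 and 22.3. A gene's place therefore depends on which probe is read, and genes with more probes had more chances: 8.81% of genes with 1 probe, 11.9% with 2 and 18.04% with 3 or more were in the brightest decile.

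**Figure D4:**
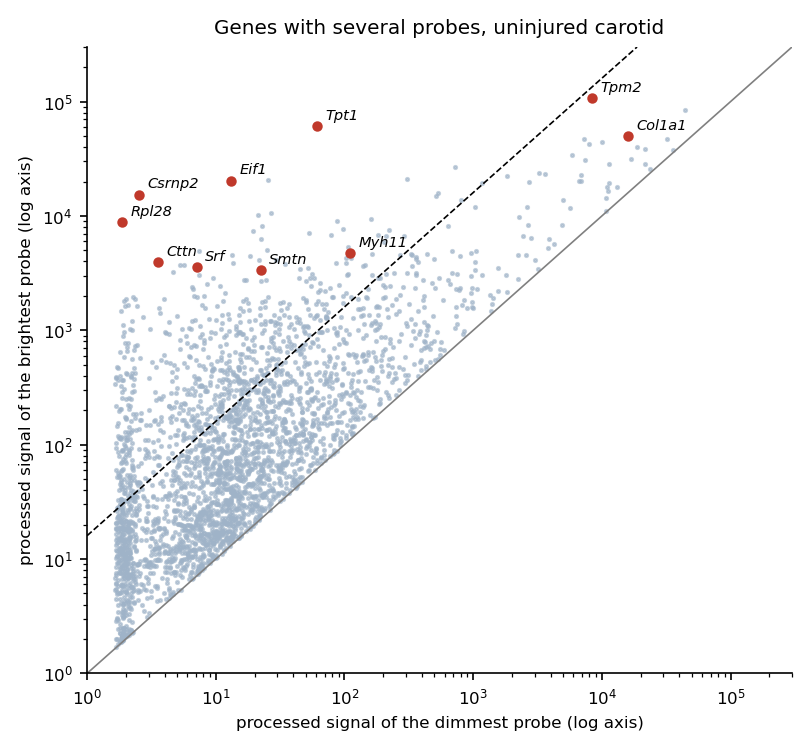
Brightest against dimmest probe (processed signal, log axes) for the 2987 genes with several probes on the uninjured array, 1 point per gene; points lie on or above the grey line of equality by construction. Genes above the dashed line (695) have probes 16-fold or more apart; Col1a1 and Tpm2 lie below it, and Tpt1, Csrnp2, Rpl28, Eif1, Cttn, Srf, Smtn and Myh11 above it.

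The promoters of bright and dim genes differed in base composition. A GC box, GGGCGG on either strand in the 250 bases before the start, was present in 64.9% of 767 genes of the brightest decile with a single annotated start, in 40.5% of 770 genes of the dimmest decile and in 32.1% of 3205 genes that were not well above background. Over all 24206 promoters the share was 33.6%. The median GC content of the same windows was 60.4% in the brightest decile, 55.6% in the dimmest and 51.6% in genes that did not pass, so the motif and the base composition moved together and their parts were not separated. TATAAA on either strand, from 45 to 15 bases before the start, was present in 4.04% of the brightest decile, 2.99% of the dimmest and 2.55% of all promoters. It was present in 4.02% of genes that were not well above background and in 1.42% of the second decile, so its share did not follow brightness. Searches for different motifs were independent and their matches may overlap. The pyrimidine run described for ribosomal protein genes was present in 11.9% of the brightest decile and, without the ribosomal protein genes, in 8.29%, near the 8.49% of all promoters.

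**Figure D5:**
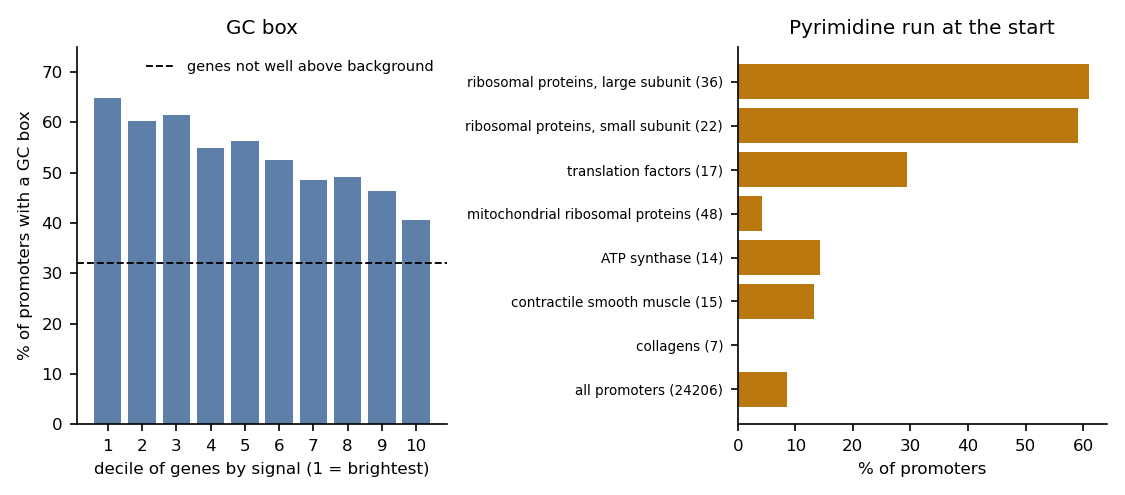
Left, share of promoters with a GC box by decile of gene signal on the uninjured array (1 is the brightest), with the share among genes not well above background as a dashed line (32.1%). Right, share with a pyrimidine run at the start in gene lists (number of promoters in parentheses); the 2 ribosomal protein lists stand at 61.1% and 59.1%, and all promoters at 8.49%.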

How the data were processed

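Total RNA of the uninjured carotid sample was hybridised to 1 one-colour Agilent array. Per the file headers, the authors took each spot's intensity from Agilent Feature Extraction 10.7.3.1, with background subtracted and with no step across arrays. The array design follows rat assembly rn4, per the file headers. Control spots and spots with a non-uniformity or population outlier flag were left out (105 of 43379, 0.242%), log2 signals of a probe's spots were averaged, and a probe counted as above background where most of its spots carried the scanner's well-above-background flag. Accessions without version were matched to RefSeq symbols (GRCr8), which named 17511 of 41008 probes (42.7%). A gene took its brightest probe.

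Named were the 50 brightest genes, fixed markers, all contractile genes, the brightest and defining members of other lists, and 5 genes with discordant probes. Members and lists were chosen with earlier results of these data known. The 65 lists and families hold genes chosen by hand or by symbol. Promoter motifs were chosen after seeing the data. Python 3.11.15, pandas 2.3.3, R 4.3.3 and limma 3.58.1 were used. The ranking code was run on simulated data with known raised genes, which checks the code and not the limits of the probes. Alternatives included normexp correction (offset 50) and raw medians, for which the median signal stood in for the mean signal. The authors' deposited table of log2 values for the same array, with no stated normalization in the labels or headers, served as an alternative. Injured arrays were not used, and a few genes are not reported here. Precision is limited by having 1 array.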

Additional observations from a re-analysis of the deposited data

Results flagged for a closer look

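Many of the brightest probes had no gene name here. Of 23497 such probes, 12549 (53.4%) were well above background, beside 68.5% of named probes. No negative-control spot was, while 111 of 320 spike-in spots were. All 10 of the brightest probes, 16 of the brightest 20 and 39 of the brightest 100 were unnamed. The brightest of all read 255766, above Col3a1, the brightest named gene, at 118184. These probes carry Ensembl transcript identifiers, expressed sequence tags or other accessions that matched no RefSeq symbol, so the ranking covers named genes only.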

How the results depend on the processing

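The 6 counts that lead the description were recomputed under the alternative settings, and each stayed within 1.5 times its reference value except in 2 cases. The reference is the main value, except for the authors' deposited table, which holds fewer probes: there 7 contractile, 10 ribosomal and 10 collagen and proteoglycan genes were in the brightest decile, against 6, 9 and 9 by the scanner signal of the same probes. When only genes with 1 probe were ranked, which removes genes, 61 of the 100 brightest genes were shared with the main ranking. Those 61 are the genes of the 100 with 1 probe, so that overlap was fixed by the removal. In that ranking 45 rather than 70 ribosomal protein genes were in the brightest decile. Leaving out the filter on dim genes could not change the 100 brightest. With the dimmest probe of each gene 77 of the 100 were shared, and with normexp or unsubtracted signals 93. Of 585 list counts under 9 alternatives, 544 were within 1.5 times, 20 were higher and 21 lower. The 544 include lists with no gene in the brightest decile under either setting, such as mitosis, which say little about stability. No paired analysis was possible because the result comes from no test and there is 1 sample. Having 1 array, uncalibrated probes and unnamed probes limits every rank, and signals under about 16 carry the widest spot error.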

Other observations

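The authors' deposited table holds 9260 probes, of which 5303 were set against this array's scanner signal. Across those probes, which are not independent replicates, its column for the uninjured artery correlated with the log2 processed signal at a Pearson r of 0.947 and a Spearman rho of 0.95, and its median was 7.64. The values look like a log2 scale running in the same direction as brightness, with a median offset of 1.38, and its centring is not known.

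For 90 probes the authors' deposited table lay more than 8-fold from the scanner signal after that offset, 53 lower and 37 higher. On the log2 scale, the dimmest probe of Tpt1 read 5.95 on the scanner and a higher 15.68 in the authors' deposited table. Atp1b2, a sodium pump subunit, read 10.23 on the scanner and a lower 2.39 in the authors' deposited table. The brightest probe of Srf read 11.81 on the scanner and a lower 7.58 in the authors' deposited table. A probe of Nr3c1, the glucocorticoid receptor, read 0.91 on the scanner and a higher 9.11 in the authors' deposited table. The 4 were chosen after their values were seen, and why the sources differ was not tested.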
